A study of Mus musculus with 4 samples.

Results

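Inhibitory receptors are surface proteins that T cells put up after they have met antigen, and the 8 genes described here are 6 of these receptors, the ectoenzyme CD39 and the nuclear factor TOX. The receptor genes were Pdcd1 (PD-1), Lag3 (LAG-3), Havcr2 (TIM-3), Tigit (TIGIT), Ctla4 (CTLA-4) and Cd160 (CD160), and the other members were Entpd1 (CD39) and Tox. They were taken by symbol from the 31053 genes listed in the count files, and all 8 were found, each once. Their level and their detection in the same cell barcode were measured in T cell barcodes of 4 mouse libraries. The barcodes were divided into 3 subsets. CD8-only barcodes had a Cd8a or Cd8b1 UMI (unique molecular identifier, a tag that marks 1 captured transcript) and no Cd4 UMI. CD4-only Foxp3-zero barcodes had a Cd4 UMI and none of Cd8a, Cd8b1 or Foxp3. Foxp3-positive barcodes had a Foxp3 UMI, whichever coreceptor they held.

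The study compared females before diabetes onset whose Ocab gene carried loxP sites (genotype Ocabfl/fl, the control) with females of genotype Ocabfl/fl.CD4-Cre. The product of Ocab, whose current symbol is Pou2af1, is a transcriptional coactivator recruited by octamer-binding factors. Cre recombinase driven by the Cd4 promoter is active in thymocytes that carry both CD4 and CD8, so it acts in both mature lineages. Leukocytes sorted for CD45 came from the pancreas of mice aged 12 weeks, with 4 mice pooled per genotype. T cells taken by magnetic separation for CD3 came from the pancreatic lymph node at 8 weeks, with 5 mice pooled per genotype. Both genotypes carried the floxed alleles, and the labels name no strain and no separate Cre control. Tissue, age and selection differed together, so values of the tissues are given side by side and not compared. There was 1 library per group. No test between genotypes was possible, and each difference below compares libraries, not conditions, with 95% intervals for counting error only.

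The pancreas libraries listed 4524 (control) and 6963 (CD4-Cre) barcodes, and the lymph node libraries 3059 and 6528. The CD8-only, CD4-only Foxp3-zero and Foxp3-positive subsets held 426, 827 and 121 barcodes in pancreas control and 633, 1895 and 209 in pancreas CD4-Cre. They held 691, 1176 and 177 barcodes in lymph node control and 1464, 2459 and 357 in lymph node CD4-Cre. Between 9 and 19 CD8-only barcodes per library also had a Foxp3 UMI and stand in both subsets. Median depth per kept barcode lay between 3615 and 4625 UMIs, and any pair of libraries shared between 21 and 70 barcode sequences. In CD8-only and CD4-only Foxp3-zero barcodes, Pou2af1 was lower in both CD4-Cre libraries. It had 6 control and 1 CD4-Cre UMI in pancreas CD8-only barcodes and 19 against 3 in CD4-only Foxp3-zero barcodes, and in the lymph node 16 against 2 and 38 against 1. In Foxp3-positive barcodes it had 2 control and 4 CD4-Cre UMIs in the pancreas and 1 and 0 in the lymph node, too few to check the labels there. All 7 T cell markers had UMIs in every subset, summing to between 5445 and 7096 CPM. CPM, the scale used for levels below, is a gene's UMIs over all UMIs of the subset, times 1e+06.

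PD-1 binds PD-L1 and PD-L2 and recruits the phosphatase SHP-2 to the antigen receptor complex, CTLA-4 competes with CD28 for CD80 and CD86, and TIGIT competes with CD226 for the poliovirus receptor. LAG-3 binds MHC class II and FGL1, TIM-3 binds galectin-9 and CEACAM1 among others, CD160 binds HVEM, and CD39 degrades extracellular ATP on the way to adenosine. TOX is a nuclear factor that sustains the state in which T cells under lasting antigen exposure keep several of these receptors at once, and regulatory T cells carry CTLA-4, TIGIT and CD39 as part of their ordinary program. In autoimmune diabetes of the mouse, PD-1 and CTLA-4 are known to restrain T cells that recognise islet antigens.

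The promoter windows of 4 receptors that were often found in the same barcodes, or that changed most between the sets of barcodes below, are shown because OCA-B acts through octamer sites. RefSeq (GRCm38.p6) gave windows for 6 of the 8 members, in 8 records; Lag3 and Tox had no entry in that table. Each runs for the 250 bases before the annotated start, 5′ to 3′ along the gene's strand. Capitals mark matches on either strand to the octamer ATGCAAAT, the AP-1 motif TGANTCA, the NFAT core GGAAA and the RUNX core TGTGGT; none of these overlapped another. The windows are chr1:94052554-94052803 (minus strand) for Pdcd1, chr16:43664185-43664434 (minus strand) for Tigit, chr1:60908775-60909024 (plus strand) for Ctla4 and chr11:46454681-46454930 (plus strand) for Havcr2.
Pdcd1: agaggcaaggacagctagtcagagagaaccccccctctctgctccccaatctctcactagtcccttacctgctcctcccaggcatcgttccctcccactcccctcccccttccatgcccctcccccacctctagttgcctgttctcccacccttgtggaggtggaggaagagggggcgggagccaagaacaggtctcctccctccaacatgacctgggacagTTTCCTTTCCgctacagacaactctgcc
Tigit: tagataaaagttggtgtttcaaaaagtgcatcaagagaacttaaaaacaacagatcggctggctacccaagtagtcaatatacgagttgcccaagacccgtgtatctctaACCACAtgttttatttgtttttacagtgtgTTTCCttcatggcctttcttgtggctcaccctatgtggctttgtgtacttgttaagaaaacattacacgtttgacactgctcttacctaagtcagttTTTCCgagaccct
Ctla4: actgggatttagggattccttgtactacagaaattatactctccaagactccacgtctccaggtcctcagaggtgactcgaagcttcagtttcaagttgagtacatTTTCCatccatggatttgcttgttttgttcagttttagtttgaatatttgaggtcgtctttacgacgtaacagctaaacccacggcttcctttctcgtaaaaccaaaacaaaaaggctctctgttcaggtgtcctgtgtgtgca
Havcr2: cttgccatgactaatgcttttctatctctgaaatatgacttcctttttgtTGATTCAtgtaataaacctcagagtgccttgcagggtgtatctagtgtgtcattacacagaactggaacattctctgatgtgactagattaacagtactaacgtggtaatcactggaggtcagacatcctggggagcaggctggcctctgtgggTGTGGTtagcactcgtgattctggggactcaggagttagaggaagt
The NFAT core occurred 2 times in the Pdcd1 window, in direct succession, 2 times in that of Tigit and 1 time in that of Ctla4. Of 32851 RefSeq promoter windows of this length, 55.6% held that short core. The RUNX core occurred once each in the Tigit and Havcr2 windows and in 14.05% of all windows, and the AP-1 motif occurred in the Havcr2 window and in 6.75% of all. None of the 8 windows held the octamer, which 1.60% of all windows held. These are letter matches in short windows and say nothing of binding.

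Pdcd1 (chromosome 1, 94038305 to 94052553) was detected in all 3 subsets of all libraries. In pancreas CD8-only barcodes it stood at 158 CPM in control (95% interval 141 to 177) and 167 in CD4-Cre (153 to 182), and the intervals overlapped. In pancreas CD4-only Foxp3-zero barcodes it stood at 71.2 and 70.1, and in Foxp3-positive barcodes at 122 and 124. The lymph node levels were 9.15 and 8.22 in CD8-only barcodes, 38.6 and 30.4 in CD4-only Foxp3-zero barcodes and 78.2 and 97.5 in Foxp3-positive barcodes. The lymph node CD4-only difference was a log2 ratio of CD4-Cre over control of -0.34 (-0.59 to -0.09), and the other 5 intervals of Pdcd1 included 0. Per barcode that held it, Pdcd1 had 2.28 UMIs (control) and 3.16 UMIs (CD4-Cre) among pancreas CD8-only barcodes, while the share of barcodes holding it was 31.7% in control and 24.8% in CD4-Cre. A similar summed level thus came from a smaller share of barcodes with more UMIs each in the CD4-Cre library.

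Lag3 (chromosome 6, 124904361 to 124911705) stood at 203 CPM in control and 194 in CD4-Cre among pancreas CD8-only barcodes, for a log2 ratio of -0.07 (-0.25 to 0.12). It also had more UMIs per positive barcode in CD4-Cre, 3.66 against 2.76. In pancreas CD4-only Foxp3-zero barcodes it stood at 82.3 for control and 100.7 for CD4-Cre (log2 ratio 0.29, 0.08 to 0.50), and in Foxp3-positive barcodes at 383 and 400. In the lymph node it stood at 17.1 and 12.4 in CD8-only barcodes and at 24.8 and 32.3 in CD4-only Foxp3-zero barcodes (log2 ratio 0.38, 0.10 to 0.67). In lymph node Foxp3-positive barcodes it stood at 109.9 for control and 73.2 for CD4-Cre, a ratio of -0.59 (-0.98 to -0.19). That last value lay at the 1.5-fold limit and depended on few barcodes: 1 control barcode held 32.7% of the Lag3 UMIs, the ratio was -0.20 without the richest barcode of each library, and it was -0.09 without barcodes holding a Mki67 or Top2a UMI. In CD4-only Foxp3-zero barcodes Lag3 was higher in CD4-Cre in both tissues. In the pancreas this ratio was 0.06 (-0.16 to 0.29) once Trbv15 and Trbv13-3 barcodes, described below, were left out.

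Havcr2 (chromosome 11, 46454935 to 46481255) was the scarcest receptor in the counts, with 30 control and 43 CD4-Cre UMIs in pancreas CD8-only barcodes, or 15.4 and 14.5 CPM. It stood at 5.23 in control and 1.70 in CD4-Cre among pancreas CD4-only Foxp3-zero barcodes and at 14.3 and 21.6 among Foxp3-positive barcodes. The CD4-only ratio rested on 16 control UMIs in 4 barcodes, of which 1 barcode held 50%, against 12 CD4-Cre UMIs in 9 barcodes. For the lymph node, 1 Havcr2 UMI was found in all 3 subsets of both libraries. In the 1176 and 2459 lymph node CD4-only Foxp3-zero barcodes the count was 0, and the floor of 3 counts equals 0.519 and 0.267 CPM. This floor is a setting and not the limit of an interval.

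Tigit (chromosome 16, 43648867 to 43664146) stood at 183 CPM in control and 146 in CD4-Cre among pancreas CD8-only barcodes, for a log2 ratio of -0.33 (-0.53 to -0.12). It stood at 74.5 and 85.2 in pancreas CD4-only Foxp3-zero barcodes and at 593 and 524 in Foxp3-positive barcodes, with both intervals including 0. In the lymph node Tigit was higher in CD4-Cre in both conventional subsets. CD8-only barcodes held 5 control UMIs and 47 CD4-Cre UMIs, or 1.24 and 5.601 CPM (log2 ratio 2.18, 0.86 to 3.87), and CD4-only Foxp3-zero barcodes 6.23 and 13.4 CPM (1.10, 0.57 to 1.67). Only 0.724% and 1.91% of lymph node CD8-only barcodes held a Tigit UMI, and after thinning each barcode to 2000 UMIs the shares in CD4-only Foxp3-zero barcodes were 1.29% and 1.28%. The thinned CD4-only shares were thus alike, while before thinning positive barcodes had 3.13 Tigit UMIs each in CD4-Cre against 1.80 in control. These UMIs per positive barcode were not scaled for depth. Lymph node Foxp3-positive barcodes had 50.7 and 47.1 CPM. Under the alternatives run, the Tigit ratio stayed above 0 in lymph node CD8-only and CD4-only Foxp3-zero barcodes, the lowest being 0.88 in the latter with equal weight for each barcode.

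The lymph node libraries also differed in other measures. Of the barcodes listed, 1.01% in control and 9.39% in CD4-Cre had over 10% mitochondrial UMIs and were left out. The summed level of 5 erythroid markers was 927 CPM in control CD8-only barcodes, 713 in CD4-only Foxp3-zero barcodes and 10.6 in Foxp3-positive barcodes, and all 5 were at 0 in each CD4-Cre subset. In control CD8-only and CD4-only Foxp3-zero barcodes all 5 had UMIs. That of 5 proliferation markers was 54.2 and 11.8, 32.7 and 12.5, and 360 and 62.4 in the 3 subsets. Without barcodes holding a Mki67 or Top2a UMI, the Tigit ratio was 2.66 in CD8-only and 1.03 in CD4-only Foxp3-zero barcodes. The part of the other measures in the lymph node values was not tested.

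Ctla4 (chromosome 1, 60887000 to 60915832) was lower in CD4-Cre in all 6 comparisons, which rested on 1 pair of libraries per tissue. The interval lay below 0 in 4 of these comparisons. The median log2 ratio of all genes was -0.02, 0.04 and 0.02 in the pancreas subsets, in the order used above. In those of the lymph node it was -0.11, -0.08 and -0.05. For Ctla4 the exception to the lower direction under other settings was the pancreas Foxp3-positive ratio. That ratio lay near 0 and reached 0.10 with at least 2 UMIs of the subset genes. Pancreas CD8-only barcodes had 119 CPM in control (104 to 135) and 78.1 in CD4-Cre (68.4 to 88.8), with a log2 ratio of -0.61 (-0.88 to -0.34). The corresponding lymph node CD8-only values were 8.66 and 4.41 (-0.97, -1.68 to -0.26), and the lymph node CD4-only Foxp3-zero values were 18.5 and 11.4 (-0.70, -1.08 to -0.31). Without barcodes holding a Mki67 or Top2a UMI, these ratios were -1.08 and -0.55, the latter within 1.5-fold. Lymph node Foxp3-positive barcodes had 210.3 and 159.9 (-0.40, -0.67 to -0.12), and after thinning 34.3% of control and 23.2% of CD4-Cre barcodes held a Ctla4 UMI. In the pancreas the values were 84.3 and 74.9 in CD4-only Foxp3-zero barcodes and 633 and 625 in Foxp3-positive barcodes, with log2 ratios of -0.17 and -0.02 and intervals that included 0.

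Cd160 (chromosome 3, 96798763 to 96829351) was higher in CD8-only than in CD4-only Foxp3-zero barcodes in both tissues. It stood at 31.3 and 42.1 CPM in the pancreas (log2 ratio 0.43, -0.03 to 0.89) and at 15.1 and 13.9 in the lymph node. Its CD4-only Foxp3-zero levels were 2.61 and 4.24 in the pancreas and 1.90 and 1.78 in the lymph node. Its Foxp3-positive levels were 15.9 and 9.0 from 10 UMIs in each library in the pancreas, and 8.45 and 7.01 in the lymph node. All 6 intervals of its log2 ratio included 0. Its level was higher still in a pancreas cluster outside the 3 subsets, led by Ccl5, Xcl1 and Cd7 and described below.

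Entpd1 (chromosome 19, 40612366 to 40741602) stood at 29.7 and 24.9 CPM in pancreas CD8-only barcodes, 6.21 and 7.35 in CD4-only Foxp3-zero barcodes and 19.1 and 27.9 in Foxp3-positive barcodes. In the lymph node it stood at 12.7 and 8.92 in Foxp3-positive barcodes, with 2 UMIs in each library among CD8-only barcodes and 6 and 9 among CD4-only Foxp3-zero barcodes. No interval of its log2 ratio excluded 0.

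Tox (chromosome 4, 6686353 to 6991557) stood at 143 CPM in control and 116.1 in CD4-Cre among pancreas CD8-only barcodes, for a log2 ratio of -0.30 (-0.53 to -0.06). Its values were 50.6 and 54.0 in pancreas CD4-only Foxp3-zero barcodes and 119 and 111 in Foxp3-positive barcodes. Unlike the receptors it was readily found in lymph node CD8-only barcodes, at 40.1 and 41.1, where 18.5% and 18.9% of barcodes held it. Lymph node CD4-only Foxp3-zero barcodes had 45.9 and 48.9, and Foxp3-positive barcodes 107 and 114. The 5 comparisons other than pancreas CD8-only had intervals that included 0.

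**Figure D1:**
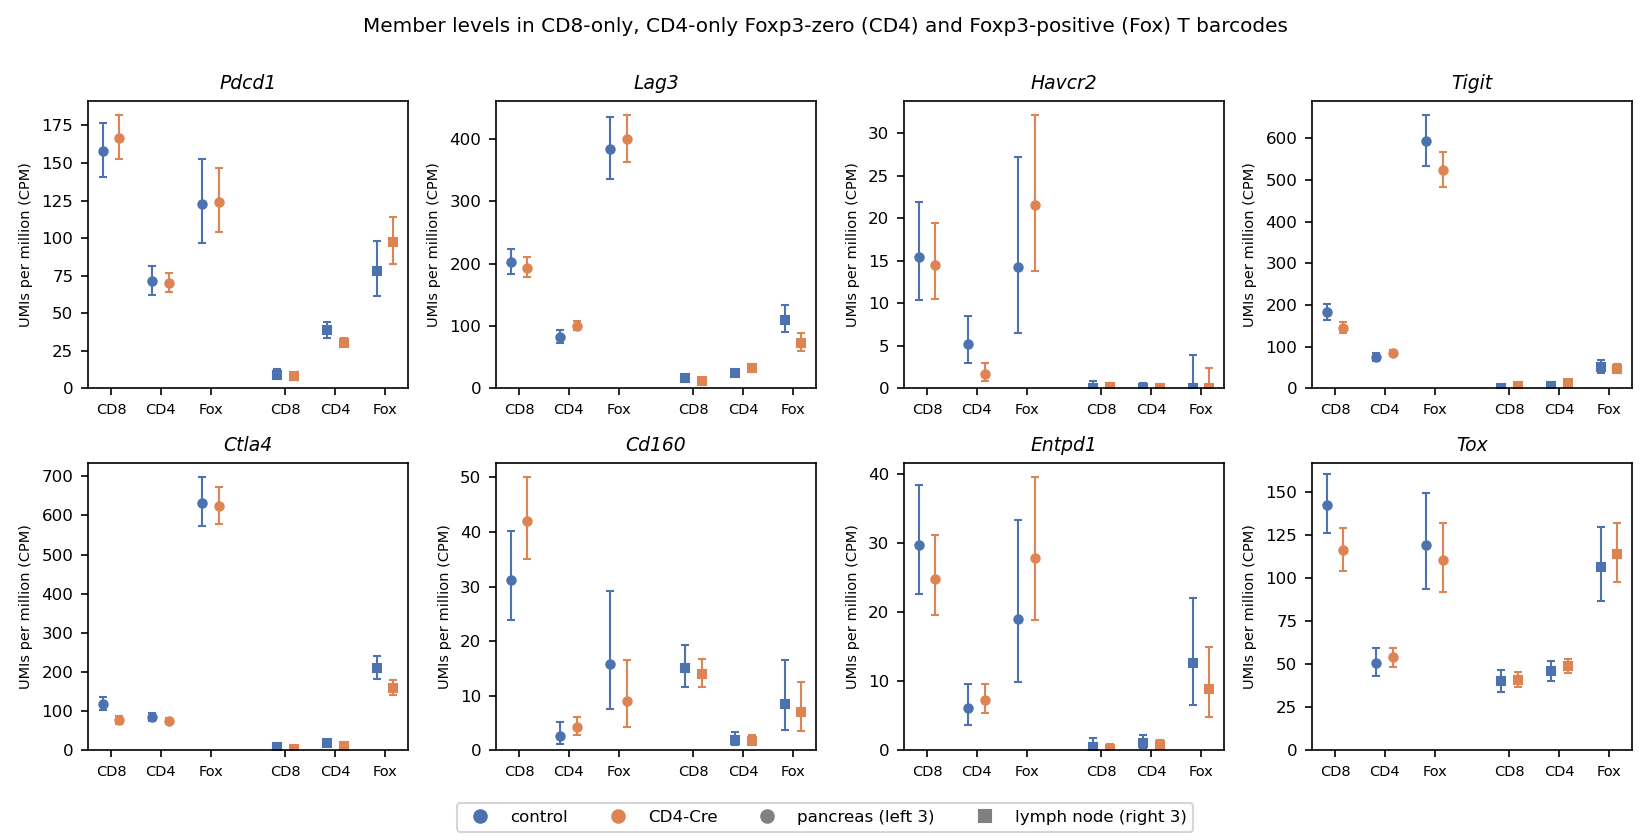
Level of each member in CPM (linear axis from 0, a different scale in each panel) in CD8-only (CD8), CD4-only Foxp3-zero (CD4) and Foxp3-positive (Fox) barcodes, circles for the pancreas and squares for the lymph node, blue for control and orange for CD4-Cre. Bars are exact Poisson 95% intervals for counting error in 1 library each; Ctla4 in pancreas CD8-only barcodes stood at 119 in control and 78.1 in CD4-Cre, while Pdcd1 stood at 158 and 167.

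Counted over the members, 1 of 8 was past 1.5-fold between the pancreas CD8-only libraries, namely Ctla4, which was lower in CD4-Cre. Of all 9234 genes with at least 20 UMIs there, 14.8% were past 1.5-fold in either direction, 8.62% lower and 6.14% higher. The median log2 ratio was -0.17 over the members and -0.02 over all genes tested. Ctla4 lay near the limit: its ratio was -0.56 without the exocrine-led cluster, -0.49 without Trbv13-3 barcodes and -0.58 with library sizes scaled by edgeR's TMM, and no member was past 1.5-fold under these 3 settings. In pancreas CD4-only Foxp3-zero barcodes 2 of 8 were past it, Havcr2 lower and Cd160 higher (log2 ratio 0.70, -0.46 to 2.03), beside 10.1% of all genes (5.21% lower and 4.89% higher). In pancreas Foxp3-positive barcodes 2 of 8 were past it, Havcr2 higher (0.59, -0.56 to 1.88) and Cd160 lower (-0.82, -2.24 to 0.60), beside 19% of all genes (9.17% lower and 9.84% higher). These 4 calls rested on 20 to 38 UMIs each. In the lymph node, where 6 of 8 members had at least 20 UMIs in each subset, Tigit (higher) and Ctla4 (lower) were past it in CD8-only and in CD4-only Foxp3-zero barcodes, beside 9.71% and 8.55% of all genes. In CD8-only barcodes 7.47% of all genes were lower and 2.24% higher, and in CD4-only Foxp3-zero barcodes 6.22% and 2.33%. The median log2 ratio of all lymph node CD8-only genes was -0.11, beside 2.18 for Tigit and -0.97 for Ctla4. In lymph node Foxp3-positive barcodes Lag3 alone was past it, lower in CD4-Cre, beside 16.8% of all genes (10.5% lower and 6.36% higher).

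The pancreas CD8-only barcodes were next read with and without those carrying the T cell receptor beta segments Trbv15 or Trbv13-3. Trbv15 was the leading segment in 9 control barcodes (2.11%) and 77 CD4-Cre barcodes (12.2%), and Trbv13-3 in 69 (16.2%) and 56 (8.85%). Reads of Trbv13-3 may be shared with closely similar Trbv13 segments, so that its counts are uncertain. The most frequent alpha segment among CD4-Cre Trbv15 barcodes was Trav8n-2, in 46 of the 69 with an alpha segment (66.7%). Among control Trbv13-3 barcodes it was Trav16d-dv11, in 39 of 55 (70.9%), and among CD4-Cre Trbv13-3 barcodes the same segment had 11 of 45 (24.4%). Alpha segments also have near-identical copies in the mouse genome, and each library pooled 4 mice, so that barcodes sharing segments cannot be assigned to clones or to animals.

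With the Trbv15 and Trbv13-3 barcodes left out, 348 control and 500 CD4-Cre barcodes remained. There 7 of 8 members were lower in CD4-Cre, where 6 of 8 had been lower over all barcodes. The share of all genes that were lower by any amount was not counted. Pdcd1 stood at 132.7 CPM in control and 89.3 in CD4-Cre, for a log2 ratio of -0.57 (-0.86 to -0.29), where it had been 0.08 (-0.13 to 0.29) over all barcodes. Lag3 stood at 174.5 and 134.0 (-0.38, -0.62 to -0.14). Tigit stood at 140.1 and 97.8 (-0.52, -0.79 to -0.24), Ctla4 at 106 and 63.9 (-0.73, -1.06 to -0.40) and Tox at 123 and 89.3 (-0.46, -0.75 to -0.17). Of the scarcer members, Havcr2 had 20 control and 5 CD4-Cre UMIs (-2.46, -4.23 to -1.003) and Entpd1 38 and 29 (-0.85, -1.60 to -0.11). Cd160 alone was higher, with an interval of -0.21 to 0.94. Now 3 of 8 members (Havcr2, Ctla4 and Entpd1) were past 1.5-fold lower, beside 10.2% of all genes, and the median log2 ratio of the members was -0.55 against -0.04 over all genes.

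The 2 segments carried the members unequally. The 77 CD4-Cre Trbv15 barcodes had 448 CPM of Pdcd1, 393 of Lag3, 353 of Tigit, 70.5 of Havcr2, 83.1 of Entpd1 and 252 of Tox, each above the level in the CD4-Cre barcodes without these segments. The 9 control Trbv15 barcodes are too few for a comparison. Among Trbv13-3 barcodes, Pdcd1 stood at 306 in control and 352 in CD4-Cre and Lag3 at 321 and 355, with ratios whose intervals included 0. Tigit (339 and 221), Ctla4 (190 and 89.5) and Tox (281 and 134) were lower in CD4-Cre, with log2 ratios of -0.62 (-1.08 to -0.16), -1.08 (-1.78 to -0.41) and -1.06 (-1.63 to -0.51). The share of CD4-Cre Trbv13-3 barcodes holding Pdcd1 was 33.9%, against 56.5% in control. Pdcd1 again came from a smaller share of barcodes with more UMIs each (6.21 against 2.15). These UMIs per barcode were not scaled for depth. The median depth of Trbv13-3 barcodes was 3506 UMIs in control and 4347.5 in CD4-Cre.

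**Figure D2:**
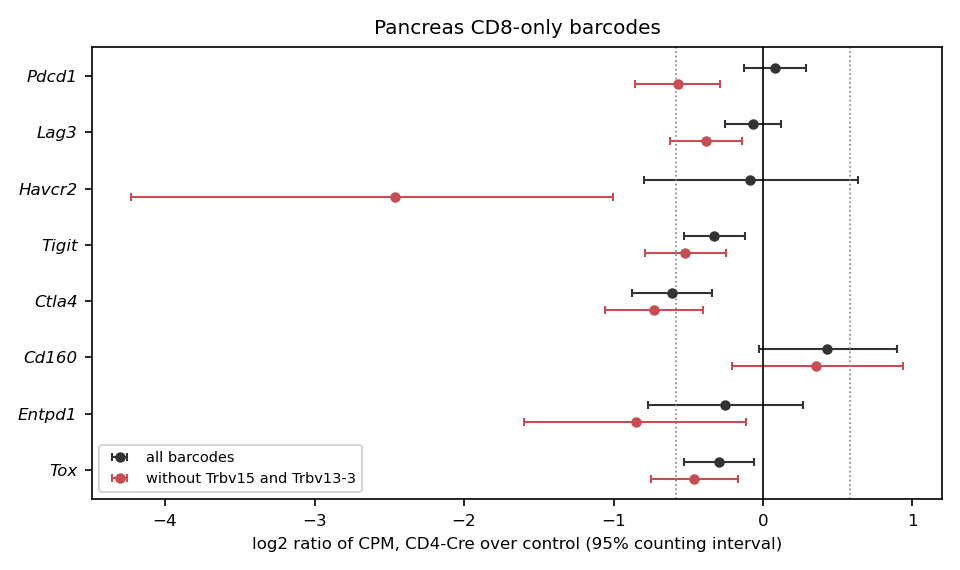
Log2 ratio of CD4-Cre over control for each member in pancreas CD8-only barcodes, black over all barcodes and red without Trbv15 and Trbv13-3 barcodes, with 95% counting intervals and dotted lines at 1.5-fold. The Pdcd1 point lay at 0.08 over all barcodes and at -0.57 without those segments. Below 0 lie 7 of the 8 red points and 6 of the 8 black points. The share of all genes below 0 was not counted, and their median was -0.04 and -0.02 in these 2 sets.

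The other subsets were read in the same way. Without Trbv15 and Trbv13-3 barcodes, 732 control and 1659 CD4-Cre barcodes remained in the pancreas CD4-only Foxp3-zero subset, and Pdcd1 had a log2 ratio of 0.10 (-0.16 to 0.37) there. In the pancreas Foxp3-positive barcodes left (167 in CD4-Cre), Havcr2 went from 0.59 to 0.02 (-1.39 to 1.52) and Ctla4 stood at 576 and 583 CPM. Among lymph node barcodes without the segments, the ratios of Tigit and Ctla4 were 2.11 and -0.97 in CD8-only barcodes and 1.21 and -0.67 in CD4-only Foxp3-zero barcodes, beside 2.18, -0.97, 1.10 and -0.70 over all barcodes. Lag3 in lymph node CD4-only Foxp3-zero barcodes went from 0.38 to 0.63 (0.31 to 0.95), at 20.9 CPM for control and 32.2 for CD4-Cre. Lymph node CD8-only barcodes carried the segments at similar shares in both libraries, with Trbv15 at 3.04% and 2.66% and Trbv13-3 at 8.10% and 7.65%. In pancreas CD8-only barcodes Trbv15 had been carried by 2.11% and 12.2%.

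Detection of several members in the same barcode was compared after thinning each barcode to 2000 UMIs, which left out 36 control and 32 CD4-Cre pancreas CD8-only barcodes of lower depth. At least 2 of the 8 members were found in 33.1% of control barcodes (129 of 390, 28.4% to 38.0%) and 24.96% of CD4-Cre barcodes (150 of 601, 21.5% to 28.6%). The difference was -8.12 percentage points (-13.95 to -2.36), and unthinned the shares were 44.8% and 34.3%. At least 3 members were found in 19.5% and 14.1%, a difference of -5.34 points (-10.3 to -0.63). Without Trbv15 and Trbv13-3 barcodes that difference was -3.82 points, with an interval that included 0 (-8.42 to 0.42). At least 4 members were found in 9.74% and 6.82% of all thinned barcodes, and no member in 48.5% and 58.9%. In pancreas B cells, which should lack most of these transcripts, at least 2 members were found in 0.12% and 0.0821% of thinned barcodes, where the median depth was 3578 and 3424 UMIs, compared with 3755 and 3906 for CD8-only barcodes. Counting the 7 members other than Tox, the difference was -5.15 points (-10.8 to 0.34).

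In the other 5 subsets the interval of the difference in detecting at least 2 members included 0. Pancreas CD4-only Foxp3-zero barcodes had 9.10% in control and 9.46% in CD4-Cre, and Foxp3-positive barcodes 54.1% and 52.6%. Without both segments the CD4-only Foxp3-zero shares were 8.09% and 8.85%. The lymph node shares were 1.46% and 0.978% in CD8-only barcodes, 3.27% and 3.39% in CD4-only Foxp3-zero barcodes and 23.3% and 19.7% in Foxp3-positive barcodes. At least 3 members were found in 9.88% of control and 4.12% of CD4-Cre lymph node Foxp3-positive barcodes, a difference of -5.77 points (-11.4 to -1.26), and of -6.52 points (-12.7 to -1.56) without both segments. In the other 4 of these subsets the interval for at least 3 members included 0. At least 4 members were found in 4.07% of control and 0.588% of CD4-Cre lymph node Foxp3-positive barcodes. Whether the pancreas CD8-only difference is itself different from these was not tested. In the pancreas, Foxp3-positive barcodes thus held several members most often and CD4-only Foxp3-zero barcodes least often in both libraries, with share intervals that did not overlap.

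**Figure D3:**
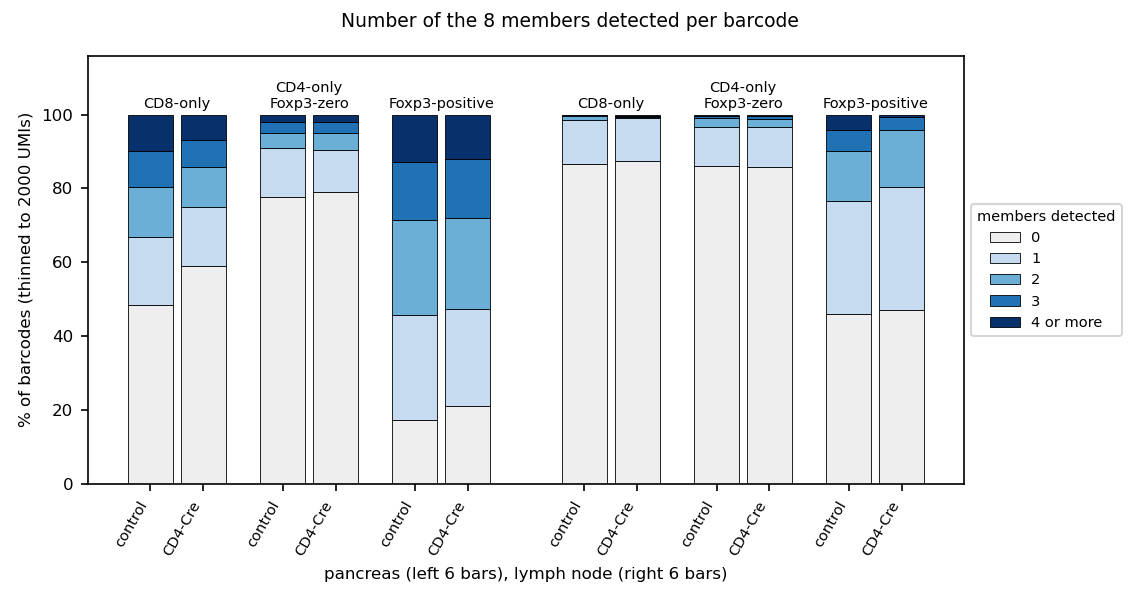
Share of barcodes, thinned to 2000 UMIs, with 0, 1, 2, 3 or at least 4 of the 8 members (percent of each subset, stacked, axis from 0), for each subset in pancreas and lymph node. Barcodes with no member made up 48.5% of control and 58.9% of CD4-Cre pancreas CD8-only barcodes, and 17.4% and 21.1% of pancreas Foxp3-positive barcodes.

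The 2 beta segments pulled the CD8-only difference in opposite directions. Among CD4-Cre Trbv15 barcodes 47 of 71 held at least 2 members (66.2%, 54.0% to 77.0%), and among control Trbv15 barcodes 3 of 8 did. Among Trbv13-3 barcodes 66.7% in control (42 of 63) and 35.2% in CD4-Cre (19 of 54) did, a difference of -31.5 points (-46.9 to -13.3). Without both segments the shares were 26.3% and 17.6%, a difference of -8.69 points (-14.7 to -2.85). Leaving out Trbv15 alone gave -13.6 points (-19.3 to -7.78), and leaving out Trbv13-3 alone gave -2.66 points, with an interval of -8.73 to 3.20; both settings were added after the data were seen. The difference was negative under each of these ways of leaving segments out, and its size and its interval depended on which segment was kept. Within Trbv15 barcodes alone it was 28.7 points the other way (-5.26 to 54.5), from 8 control barcodes.

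The makeup of the CD8-only subset also differed between the pancreas libraries. The cluster led by Ccl5, Cd8b1, Cd8a and Gzmk held 50.2% of control and 34.1% of CD4-Cre CD8-only barcodes. The cluster led by Cd8b1, Cd8a and Ccr9, in which 0 of 96 and 2 of 282 thinned barcodes held at least 2 members, held 24.2% and 45.3%, and the Cx3cr1-led cluster 9.62% and 1.26%. The clusters were built from all variable genes, which can include members, so these shares are descriptions. Ccl5, a chemokine of activated and memory CD8 T cells, is no member, and was chosen for the next split after its values were seen. A Ccl5 UMI was found in 71.6% of control and 46.0% of CD4-Cre barcodes. Among barcodes with one, at least 2 members were found in 42.6% (118 of 277) and 43.2% (117 of 271), a difference of 0.57 points (-7.66 to 8.80). Among barcodes without one, they were found in 9.73% (11 of 113) and 10.0% (33 of 330). Within the Gzmk-led cluster the shares were 49.5% and 51.7%. Among barcodes with a Ccl5 UMI and without Trbv15 and Trbv13-3, the shares were 34.4% (75 of 218) and 30.8% (56 of 182), a difference of -3.63 points (-12.7 to 5.61). Each of these intervals included 0, and that for barcodes without a Ccl5 UMI reached from -7.14 to 5.88 points.

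Levels within Ccl5-positive barcodes were also unlike those over the subset. Pdcd1 stood at 195 CPM in control and 271 in CD4-Cre (log2 ratio 0.48, 0.25 to 0.70), and Lag3 at 234.5 and 274.3 (0.23, 0.01 to 0.44). Ctla4 stayed lower in CD4-Cre, at 143.5 and 116.2 (-0.30, -0.60 to -0.01), and Tox was at 166 and 163. Without Trbv15 and Trbv13-3 barcodes, Ccl5-positive barcodes had Pdcd1 at 162 and 153 (-0.07, -0.40 to 0.24) and Lag3 at 201 and 196 (-0.04, -0.32 to 0.25). Ctla4 stayed lower in CD4-Cre among them, at 128.7 and 96.0 (-0.42, -0.81 to -0.04). It was the only member whose interval excluded 0 in that set. Among all barcodes without a Ccl5 UMI, Tigit was lower in CD4-Cre, at 72.9 and 32.1 (-1.19, -1.83 to -0.53). With a Ccl5 UMI it stood at 222.6 and 256.4 (0.20, -0.01 to 0.42). Havcr2 had 5 control UMIs and 1 CD4-Cre UMI in barcodes without Ccl5 (-3.81, -9.38 to -0.65). The intervals of the other members there included 0. The summed level of 6 NK cell markers in pancreas CD8-only barcodes was 1357 CPM in control (5 of 6 found, Klrb1c at 0) and 432 in CD4-Cre (6 of 6 found). That of 5 exocrine markers was 98.5 and 2553 (5 of 5 in both). Without the exocrine-led cluster the co-detection difference was -7.65 points.

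**Figure D4:**
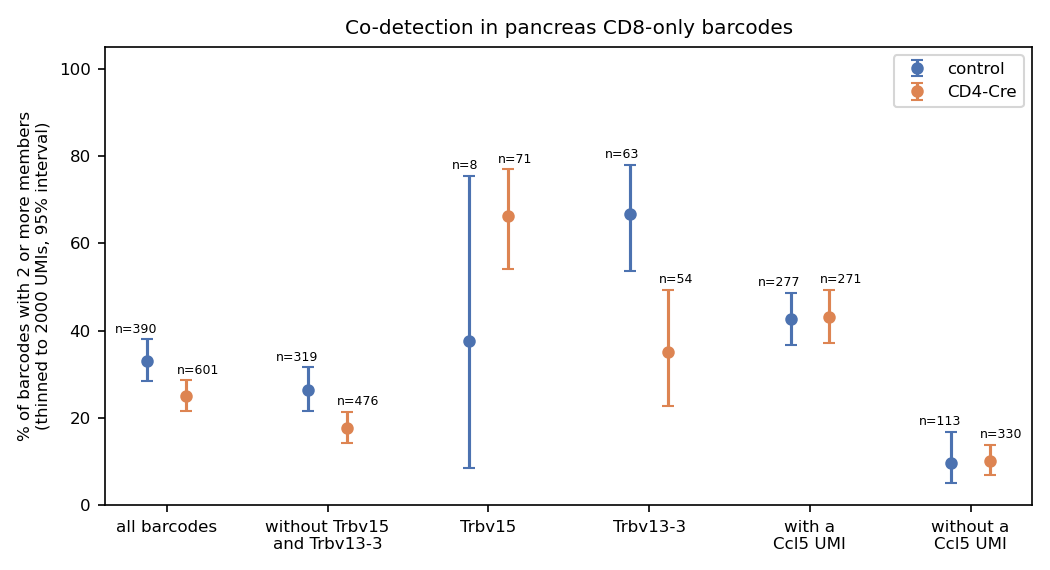
Share of pancreas CD8-only barcodes, thinned to 2000 UMIs, with at least 2 of the 8 members (percent, axis from 0) in all barcodes, by beta segment and by Ccl5, blue for control and orange for CD4-Cre, with exact 95% intervals and the number of barcodes above each point. The shares were 33.1% and 24.96% over all barcodes and 42.6% and 43.2% among barcodes with a Ccl5 UMI.

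Barcodes with a Pdcd1 UMI were compared with those without, within each library. These sets differ in depth by selection (median 4169 against 3658 UMIs in control and 4662 against 3764 in CD4-Cre for pancreas CD8-only barcodes), which favours detection of any gene in the first, whereas levels in CPM are scaled for it. In pancreas CD8-only barcodes the 135 control and 157 CD4-Cre Pdcd1-positive barcodes had Lag3 at 354 and 451 CPM, against 113 and 60.3 in Pdcd1-zero barcodes. Havcr2 stood at 38.6 and 38.5 against 1.63 and 2.04, and Tox at 216.5 and 221.2 against 98.8 and 61.8. In each library all 7 other members were higher in the Pdcd1-positive set, with log2 ratios from 0.93 (Ctla4) to 4.56 (Havcr2) in control and from 1.43 to 4.24, for the same genes, in CD4-Cre. The share of all genes higher in that set was not counted, so whether the rise is particular to the members was not tested. Barcodes with a Mki67 or Top2a UMI were also more frequent in the Pdcd1-positive set of both libraries. Havcr2 had only 2 and 4 UMIs in the Pdcd1-zero sets, and its intervals ran from 2.58 to 7.68 and from 2.77 to 6.18. After thinning, Lag3 was found in 50.6% of Pdcd1-positive and 15.2% of other control barcodes, and in 49.0% and 11.6% of CD4-Cre barcodes. Trbv15 or Trbv13-3 was carried by 31.9% of Pdcd1-positive and 12.0% of Pdcd1-zero control barcodes, and by 43.3% and 13.7% in CD4-Cre.

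Genes of the pathway lists also differed between Pdcd1-positive and Pdcd1-zero CD8-only barcodes, and those named here were picked from these lists. How many listed genes went each way, and the share over all genes, were not counted. The split had no minimum of UMIs, and only Cx3cr1 is given with intervals, so the ratios of the libraries are not compared. Pdcd1lg2, which encodes the ligand PD-L2, had log2 ratios of positive over zero of 1.46 in control and 4.02 in CD4-Cre, and Tox2, a relative of Tox, 1.63 and 3.31. Ifng, the cytokine interferon gamma, had 1.78 and 2.56, and Cxcr6, a chemokine receptor of tissue-resident T cells, 1.29 and 1.71. S1pr1, a receptor for egress from lymphoid tissue, was lower (-2.17 and -1.57) in the positive set, as were Il7r (-1.66 and -1.68) and Tcf7 (-1.39 and -0.90), a factor of naive and stem-like T cells. Cx3cr1, a receptor of effector cells, was lower in control (-1.51, -2.19 to -0.88) and 0.25 (-0.66 to 1.11) in CD4-Cre. The contrasts in the CD4-only Foxp3-zero subset of the pancreas had the same direction for Lag3 (3.61 and 3.76), Tigit (3.73 and 4.31), Tox (2.47 and 2.03) and Tox2 (3.96 and 5.30). There Cxcr5, a receptor of follicular helper T cells, was also higher, at 4.01 and 3.87.

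The wider lists of the pathway were counted in pancreas CD8-only barcodes by the same 1.5-fold limit between genotypes. Of all genes there, 8.62% were past it lower and 6.14% higher. Of the 14 transcription factors, 5 were past it, all lower in CD4-Cre. Nr4a1 stood at 69.2 CPM in control and 29.3 in CD4-Cre (log2 ratio -1.24), Nr4a3 at 16.4 and 7.07 (-1.22), Prdm1 at 23.1 and 12.5 (-0.89), Id2 at 574 and 346 (-0.73) and Tbx21 at 62.1 and 40.1 (-0.63). Nr4a1 and Nr4a3 are induced by antigen receptor signals, and Prdm1 (Blimp-1), Id2 and Tbx21 (T-bet) act in effector differentiation. The list's median was -0.28 against -0.02 for all genes. Without Trbv15 and Trbv13-3 barcodes 7 of the 14 were past the limit lower, beside 10.2% of all genes. The list's median there was -0.60 against -0.04 for all genes. Of 9 ligands and enzyme partners with enough UMIs, 2 were past the limit higher and 1 lower. Of the 9 receptors that share ligands, 2 were lower, Cd244a (listed as Cd244) and Cd101, with log2 ratios of -1.08 and -0.94. None of the 6 signalling partners, which include the phosphatases Ptpn6 and Ptpn11, was past it. Of the 14 companion genes 4 were lower, Klrg1 (-2.15), Cx3cr1 (-2.14), Gzmb (-1.28) and Ccl5 (-0.79), and none was higher. These lists share cells with the shift in cluster makeup given above, and its part in them was not tested.

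In CD4-only Foxp3-zero barcodes of the pancreas, 2 of the 14 transcription factors were past 1.5-fold higher (Nr4a2 and Id3, log2 ratios 2.77 and 0.72) and 1 lower (Eomes, -0.67), beside 4.89% of all genes higher and 5.21% lower. Of the lymph node CD4-only Foxp3-zero list, 3 of 12 with enough UMIs were lower and none was higher, with a list median of -0.47 against -0.08 over all genes, of which 6.22% were lower and 2.33% higher. In lymph node Foxp3-positive barcodes 4 of 10 were higher and 1 lower, beside 6.36% of all genes higher and 10.5% lower. In pancreas Foxp3-positive barcodes 3 of 14 were higher and 6 lower, beside 9.84% and 9.17%. Without Trbv15 and Trbv13-3 barcodes, 1 of the 10 was higher and 1 lower in lymph node Foxp3-positive barcodes. In those of the pancreas 2 of the 14 were then higher and 4 lower. The shares of all genes without these segments are not given here. The ligand Cd274 (PD-L1) had log2 ratios of -0.43, -0.12 and -0.37 in the 3 pancreas subsets.

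Across the pancreas clusters, several members were also found outside T cells. Havcr2 stood at 131 CPM in control and 141 in CD4-Cre for the C1qa- and C1qb-expressing macrophage-like cluster, and at 52.1 and 110.1 in the cDC1-like cluster, both above its level in the 3 T cell subsets. Entpd1 stood at 213.0 and 221.5 in the neutrophil-like cluster and 79.8 and 92.4 in the macrophage-like cluster. Tigit stood at 226 and 248 in the NK cell-like cluster led by Gzma and Klra4, where Pdcd1 and Ctla4 were at or below 5.45. Cd160 stood at 174 and 266 in the cluster led by Ccl5, Xcl1 and Cd7. That cluster had Cd3e in 78.6% and Ncr1 in 78.8% of its barcodes and was left out of the T cell subsets, under a limit of 80% with Cd3e set after the values were seen. Within T cells, the cluster led by Lag3 itself had Pdcd1 at 446 and 469, Lag3 at 728 and 908 and Tox at 233 and 229.

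**Figure D5:**
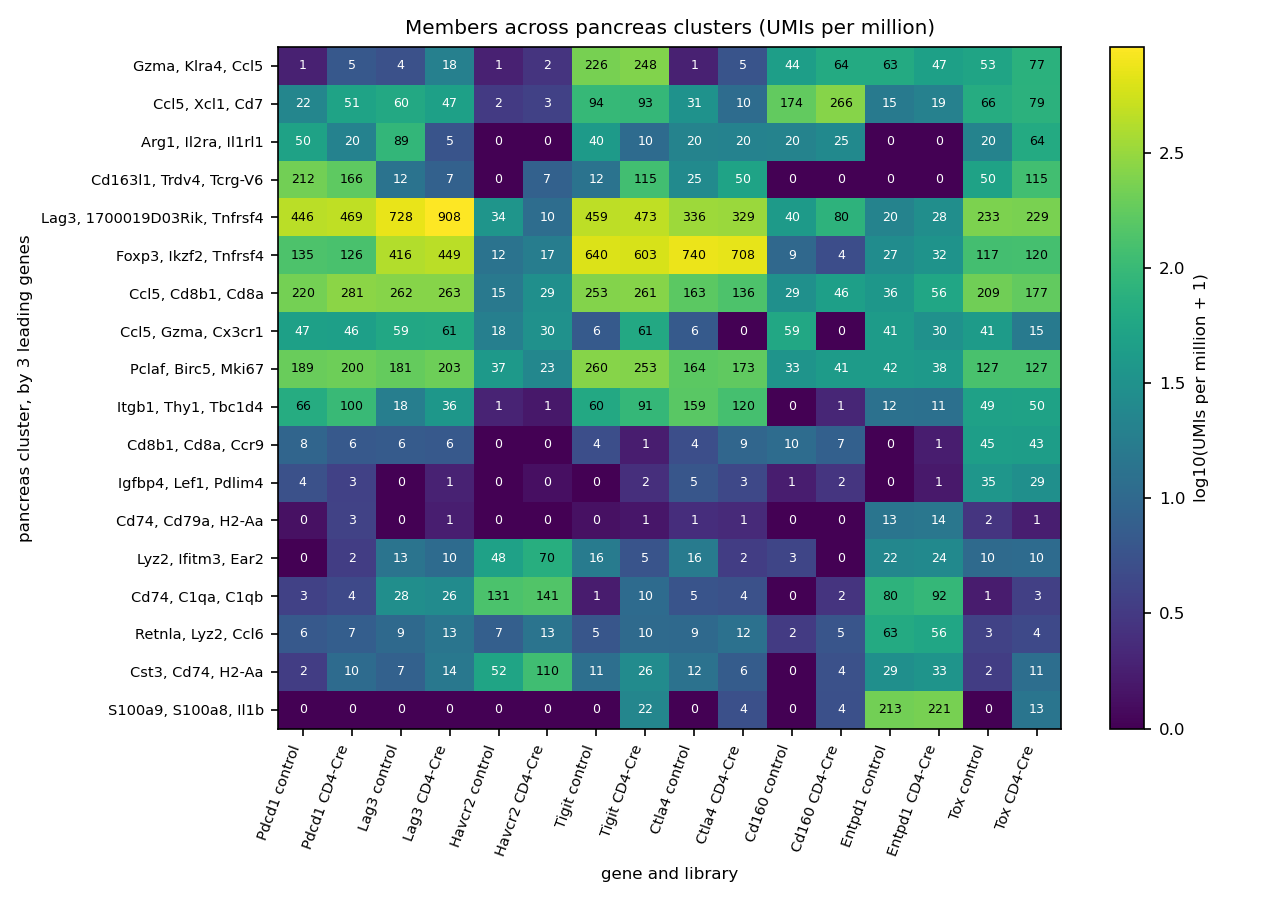
Level of each member (CPM, printed in each cell and coloured as log10 of the value plus 1) in pancreas clusters, named by their 3 leading genes, with control and CD4-Cre side by side. Havcr2 stands at 131 and 141 in the C1qa cluster, Entpd1 at 213.0 and 221.5 in the S100a9 cluster and Cd160 at 174 and 266 in the Xcl1 cluster; Lag3, Pdcd1, Foxp3 and Cd8b1 were among the genes the clusters were built on.

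Over the 12 combinations of library and subset, Pearson correlations of log2 levels (with 10 CPM added) described which members and other genes had like patterns. Lag3 and Tigit had r = 0.984 and Lag3 and Ctla4 0.925, while Cd160 had between 0.169 (with Ctla4) and 0.591 (with Entpd1). Among 10563 genes with at least 50 UMIs, the gene most like Cd160 was Eomes (r = 0.960), that most like Tigit was Slc22a15 (0.9902) and that most like Ctla4 was Nmb (0.985). The genes most like Entpd1 included Adora2a (0.969), an adenosine receptor, and those most like Tox included Cd38 (0.972). The 12 points share 4 libraries and their depths and are few, so many genes reach such values, and these are descriptions.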

How the data were processed

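Single-cell transcriptomes were measured with a 5′ gene expression kit in 4 libraries, 1 per group. The deposited values are counts of UMIs per gene and barcode, not normalized. Per the file headers, software version 3.0.0 wrote them, and the submitters' processing notes name Cell Ranger and the build mm10. The annotation used for counting is not given in the sources used here. Gene positions come from GENCODE release M21 (GRCm38), which held 30934 of the 31053 identifiers.

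Barcodes under 500 detected genes, or with over 10% of UMIs from mitochondrial genes, were dropped. Doublets were scored against 2 simulated doublets per barcode and removed at 0.8% per 1000 barcodes listed. Both libraries of 1 tissue were clustered jointly (scanpy 1.11.5, igraph 0.11.9, 2000 variable genes, 30 principal components, 15 neighbours, Leiden resolution 1). T cell barcodes were those of clusters with a Cd3e UMI in at least 80% of barcodes, a limit set after the data were seen because naming by marker lists left naive CD8 clusters unnamed; another setting took T cells from marker UMIs per barcode. The V segment of a barcode was the one with the most UMIs, and a tie that included Trbv15 or Trbv13-3 counted as that segment. Barcodes with no beta segment UMI stayed in the set without Trbv15 and Trbv13-3. They made up 8.67% of control and 6.26% of CD4-Cre pancreas T cell barcodes.

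UMIs were summed over a subset and scaled by the subset's total (CPM), with exact Poisson intervals; shares have exact Clopper-Pearson intervals and their differences Newcombe intervals, all at 95% and for counting error only. Zero counts were given a floor of 3 counts. Members were called past 1.5-fold with at least 20 UMIs over both libraries. Other settings included edgeR 4.0.16 TMM library sizes and DESeq2 1.42.0 size factors, which scale the ratios without a test. All members were named, and other genes came from lists (ligands, receptors, signalling partners, transcription factors, companions) by their highest or lowest ratios. The values of 1 listed gene are not reported here. The members and lists were chosen with earlier results of these data known. The summing and intervals were tested on simulated data.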

Additional observations from a re-analysis of the deposited data

How the results depend on the processing

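With 1 library per group no library could be left out and no setting carries a test. No paired analysis was possible because each group has 1 library. The 6 co-detection differences moved by less than their counting error under all 92 alternatives run; the pancreas CD8-only difference stayed negative in all 17, from -13.6 to -2.66 points. The number of members past 1.5-fold moved by more than 1.5 times in 42 of 104 alternatives. In pancreas CD8-only barcodes it was 1 and became 2 with T cells from marker UMIs, 3 without Trbv15 and Trbv13-3, 0 with edgeR TMM library sizes, and, in settings added after the data were seen, 2 with the Xcl1 cluster, 0 without the exocrine-led cluster, 4 without Trbv15 alone and 0 without Trbv13-3 alone. In pancreas CD4-only Foxp3-zero barcodes it was 2 and became 1 under a wider barcode filter (200 detected genes, 20% mitochondrial UMIs), no doublet removal, marker UMIs, resolution 0.5, without both segments or Trbv15 alone, with the Xcl1 cluster and with equal weight per barcode, and 0 with at least 50 UMIs. In pancreas Foxp3-positive barcodes it was 2 and became 1 under the wider barcode filter, no doublet removal, marker UMIs, without both segments or either, with at least 2 UMIs of the subset genes, without the exocrine-led cluster, and with TMM or DESeq2 scaling, and 0 without Mki67 or Top2a barcodes, with equal weight and with at least 50 UMIs. In lymph node CD8-only barcodes it was 2, with 1 under equal weight and 4 with no minimum. In lymph node CD4-only Foxp3-zero barcodes it was 2, with 1 without Mki67 or Top2a barcodes, 4 with at least 2 UMIs of the subset genes and 1 without the barcode richest in each gene. In lymph node Foxp3-positive barcodes it was 1, with 2 under the wider filter and at resolution 0.5, and 0 at resolution 2, without Mki67 or Top2a barcodes, with at least 2 UMIs of the subset genes, under TMM and DESeq2 scaling and without the richest barcode.

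Of 650 alternative log2 ratios of single members, 60 changed sign. Of these, 53 were of ratios that lay within 1.5-fold of equal, such as Pdcd1 in pancreas CD8-only barcodes (7 settings), and 7 were of ratios past it. Cd160 in pancreas CD4-only Foxp3-zero barcodes became -0.31 under the wider filter and -0.044 with marker UMIs. Cd160 in pancreas Foxp3-positive barcodes became 0.50 under the wider filter, 0.26 with no doublet removal, 0.17 without Mki67 or Top2a barcodes and 0.15 with equal weight. Lag3 in lymph node Foxp3-positive barcodes became 0.088 with at least 2 UMIs of the subset genes. The cause was not tested. TMM and DESeq2 scaling shifted every gene of lymph node CD8-only barcodes by 0.11 on the log2 scale and those of the other subsets by less than 0.1.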
